A study of Homo sapiens with 6 samples.

Results

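The genes described here encode the translation initiation and elongation factors, the soluble proteins that bring the ribosome to an mRNA and carry it along the reading frame. They were chosen by name alone, as every entry of the deposited count table that begins with EIF1 to EIF6, EEF1 or EEF2, holds no hyphen and is no EIF2AK kinase. This gave 107 of the 17222 gene names in the table, of which 57 are factor genes that could be placed in a complex and 50 are pseudogenes and other names. The cells were H226, an established human cell line labelled as squamous lung carcinoma. They were transiently transfected with ASO_CTRL, a control antisense oligonucleotide (ASO), or with ASO_LINC, an ASO directed against the long noncoding RNA *SWINGN*, and were collected after 48 h. Each condition had 3 libraries of 1 cell line and 1 targeting oligonucleotide, so the comparison cannot separate the loss of *SWINGN* from other effects of that oligonucleotide, and *SWINGN* itself was not analysed here. The study describes its experiments in general as biological triplicates, and the labels do not say whether these replicates were separate cultures. The p-values measure only the spread between these libraries.

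Translation starts when the small ribosomal subunit, loaded with eIF1, eIF1A, eIF3, eIF5 and a complex of eIF2, GTP and initiator tRNA, is recruited to the capped end of an mRNA by eIF4F and scans to a start codon. eIF2 is recharged with GTP by eIF2B, a step that stress kinases block by phosphorylating eIF2, and eIF4F assembly is blocked by the eIF4E-binding proteins unless the kinase mTORC1 phosphorylates them. In elongation, eEF1A delivers aminoacyl-tRNA, eEF1B recharges it and eEF2 moves the ribosome by a codon, while eIF5A helps at sequences on which ribosomes stall. Many of these factors are copied into processed pseudogenes, intronless genomic copies of the mRNA.

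No translation factor gene was called different after *SWINGN* knockdown. Of the 56 factor genes that passed edgeR's filter on low counts, 0 passed both thresholds of the study (adjusted p below 0.01, log2 fold change beyond 0.5) in edgeR's quasi-likelihood test, whereas 7.54% of all 14660 tested genes were called, 4.91% higher and 2.63% lower. At an adjusted p below 0.05 and the same bound, 5 factor genes were lower (*EIF4G2*, *EIF4B*, *EIF3L*, *EIF3K* and *EEF2K*) and 0 higher, beside 7.11% and 9.70% of all tested genes. At an unadjusted p below 0.05 there were 14 factor genes, 8 lower and 6 higher, beside 15.3% and 17.1% of all tested genes. DESeq2 called 2 lower, *EIF4B* and *EIF4G2*, and 0 higher, beside 3.50% and 5.36% of all genes. The median log2 fold change of the 56 genes was −0.03, with 26 above 0 and 30 below, and that of all tested genes was −0.003, with 50.3% below 0. Among the 45 tested pseudogenes and other names, 2 were called lower and 0 higher. Both, *EIF3LP2* and *EIF3LP3*, are pseudogenes of *EIF3L*. In 15 of the 56 factor genes the 3 knockdown libraries did not overlap the 3 control libraries, in 10 with lower and in 5 with higher values, where 17.3% and 18.7% of all tested genes did so. The standard errors (SE) of the 56 log2 fold changes had a median of 0.16 (0.12 to 0.37), and 48 of the fitted values lay within 0.5 of 0.

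**Figure D1:**
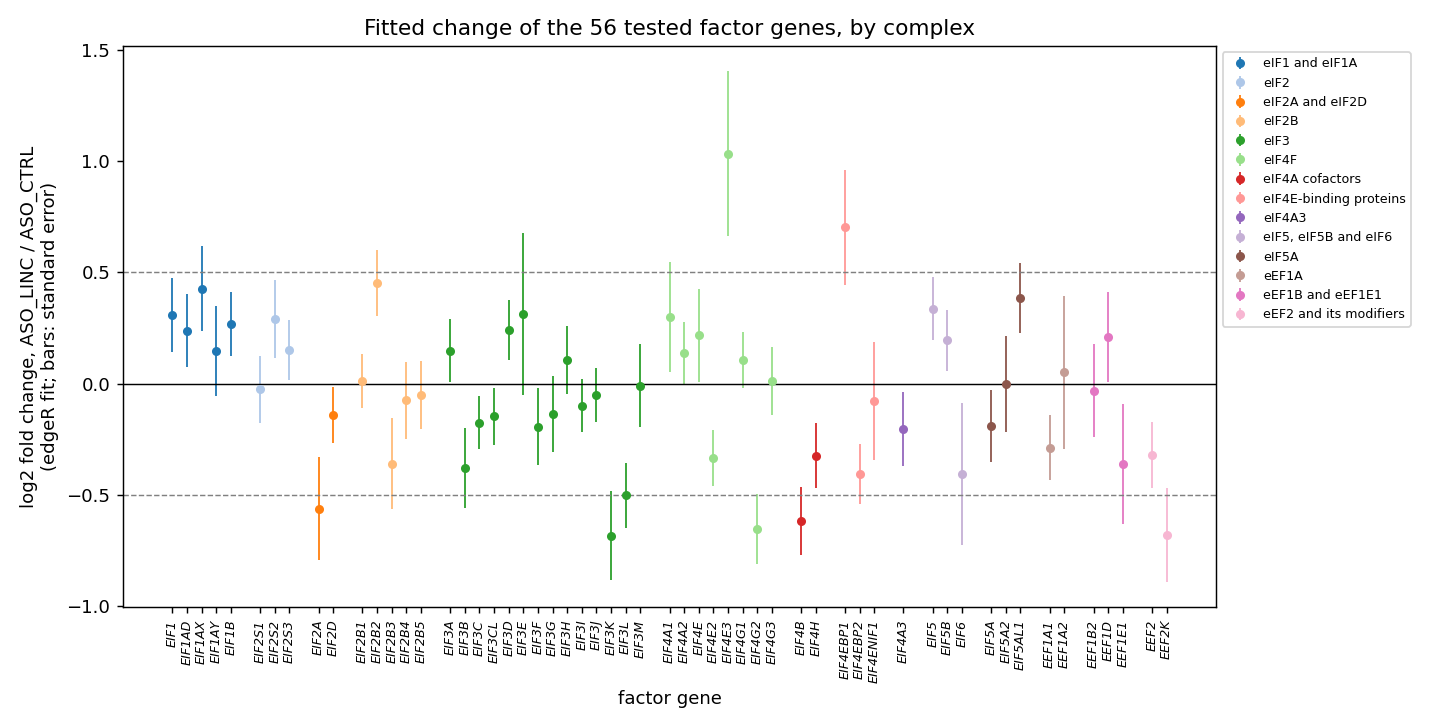
Log2 fold change of ASO_LINC over ASO_CTRL (y axis) for the 56 tested factor genes (x axis), coloured by complex. Points are edgeR's fitted values, bars are standard errors and dashed lines mark the bound of 0.5, which 2 genes exceeded upwards and 6 downwards without passing the adjusted p of 0.01.

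Between 3686828 and 10546786 reads per library were counted on genes, and the 107 members held from 1.76% to 2.15% of them. ASO_LINC replicate 3, the library with the fewest counts, stood apart from the other 2 knockdown libraries. In 22 of the 56 factor genes, replicates 1 and 2 lay on the same side of the control mean and replicate 3 on the opposite side. In 7 genes replicates 1 and 2 were opposite, in 16 all 3 lay below the control mean and in 11 all 3 above. The same count was not made over all tested genes, so it does not show a trait particular to the factor genes. Where a gene named below gained or lost a call without it, the value is given in its paragraph. Of the 6 squamous markers of the labelled cell type, *KRT5* and *KRT6A* were in the count table, and *KRT14*, *TP63*, *SOX2* and *DSG3* had no entry. *KRT5* was detected and *KRT6A* was near 0. The squamous markers summed to 63.5 to 117 reads per 1e+06 counted reads (CPM) over the 6 libraries. Of the 5 epithelial markers, *EPCAM* and *CDH1* had no entry. The other 3, the keratins *KRT8*, *KRT18* and *KRT19*, summed to 8080 to 8470 CPM in the control and 4920 to 8670 CPM in the knockdown libraries. The mesothelial markers *MSLN*, *CALB2* and *WT1* were present as well, at a summed 590 to 781 and 185 to 287 CPM, with *CALB2* called lower, and the part of this difference in the results below was not tested. *CD68* was the 1 leukocyte marker in the table, at 1.08 to 6.51 CPM. All levels below are CPM scaled by edgeR's TMM factors, which do not correct for gene length, so they compare libraries and not genes.

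Among the factors of the scanning complex, eIF1 and eIF1A keep the small subunit open for scanning. Their group, in which *EIF1AD* (0.24) was placed by its name only, had 5 tested genes. All had fitted log2 fold changes above 0 (0.15 to 0.43) and none was called. *EIF1AX*, the X-linked gene of eIF1A, was at 144, 168 and 176 CPM in ASO_CTRL replicates 1 to 3 and at 240, 263 and 152 CPM in ASO_LINC replicates 1 to 3. Replicates 1 and 2 of the knockdown lay above every control and replicate 3 among them. Its log2 fold change was 0.43 (SE 0.19, adjusted p = 0.148), and without ASO_LINC replicate 3 it was called higher at 0.63 (SE 0.11, adjusted p = 0.00178). *EIF1* was at 492, 803 and 728 CPM in the controls and at 859, 827 and 822 CPM after knockdown. The conditions did not overlap, although ASO_CTRL replicate 1 stood far below the other controls (log2 fold change 0.31, SE 0.17, adjusted p = 0.232), and leaving it out gave 0.13 (adjusted p = 0.590). *EIF5*, which makes eIF2 hydrolyse its GTP at the start codon, was at 134, 133 and 137 CPM in the controls and 167, 199 and 143 CPM after knockdown. All 3 knockdown values were higher, and the adjusted p was 0.126 (log2 fold change 0.34, SE 0.14). *EIF5B*, the GTPase that joins the large subunit, had a log2 fold change of 0.20 (adjusted p = 0.352).

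The 3 tested subunits of eIF2 had log2 fold changes from −0.03 to 0.29, the largest for *EIF2S2*, its beta subunit (0.29, SE 0.17, adjusted p = 0.281). *EIF2S3L*, a copy of the gamma subunit gene, had 3 to 14 counts per library and was not tested. Of the 5 subunits of eIF2B, *EIF2B2* was the highest at 0.45. It was at 17.5, 18.8 and 19.1 CPM in the controls and at 24.5, 24.3 and 27.1 CPM after knockdown, with no overlap, and its adjusted p of 0.0588 (SE 0.15) missed the threshold. The other 4 subunits lay between −0.36 and 0.01. *EIF2A*, which can bring initiator tRNA to the ribosome without eIF2, was at 36.5, 24.4 and 24.3 CPM in the controls and at 23.5, 20.02 and 13.3 CPM after knockdown (log2 fold change −0.56, SE 0.23, adjusted p = 0.122). The values of the conditions nearly met, at 24.3 and 23.5 CPM, and leaving out ASO_CTRL replicate 1 gave −0.34 (adjusted p = 0.403). *EIF2D*, which has a related role, did not overlap either but differed by only −0.14 (adjusted p = 0.472).

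eIF3, the largest initiation factor, is the scaffold on which the scanning complex is built, and 14 of its genes were tested. None was called, 4 had values above 0 and 10 below, and the median log2 fold change was −0.12. The 2 lowest were *EIF3K* and *EIF3L*, whose products are neighbours in the eIF3 core. *EIF3K* was at 317, 282 and 303 CPM in the controls and at 162, 143 and 259 CPM after knockdown. Every knockdown value was lower, with replicate 3 much nearer to the controls than replicates 1 and 2. The log2 fold change was −0.68 (SE 0.20, adjusted p = 0.0387), and without ASO_LINC replicate 3 *EIF3K* was called lower at −0.98 (SE 0.11, adjusted p = 9.03e-05). *EIF3B*, an RNA-binding core subunit, showed the same split, at 149, 139 and 136 CPM in the controls and 88.0, 95.1 and 144 CPM after knockdown. It went from −0.38 (adjusted p = 0.176) to a call at −0.63 (adjusted p = 0.00125) without that library. The core subunit *EIF3A* and the cap-binding subunit *EIF3D* had values of 0.15 and 0.24 (adjusted p = 0.502 and 0.251). *EIF3C* and its near-identical copy *EIF3CL* on chromosome 16 shared 97.9% of the 75-base stretches of the *EIF3C* transcript, and their values of −0.18 and −0.15 are not separate measurements. *EIF3E* had 9 to 37 counts per library, and its log2 fold change of 0.31 had a SE of 0.36.

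The *EIF3L* family held the only members past both thresholds. *EIF3L* lies on the + strand of chromosome 22 (GRCh37, 38244875 to 38285414), and its 3 pseudogenes in the table are intronless copies on chromosome 14 (*EIF3LP1*) and chromosome 10 (*EIF3LP2* and *EIF3LP3*). Since reads of 75 bases were counted on each by position, the sequences decide how far reads of the gene and its copies can be told apart. Aligned over their length, the copies were 90.5%, 96.0% and 94.9% identical to the *EIF3L* mRNA. Of their 75-base stretches, 0% in *EIF3LP1*, 16.5% in *EIF3LP2* and 7.09% in *EIF3LP3* were found unchanged in another transcript. One coding stretch of 75 bases, which begins at coding position 907 within a single exon of *EIF3L*, is shown for the gene and its copies, read 5′ to 3′ from GRCh37, with capitals where a copy differs from the gene.

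EIF3L, chr22:38271848-38271922, + strand: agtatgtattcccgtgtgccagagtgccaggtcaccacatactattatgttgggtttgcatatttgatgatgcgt
EIF3LP1, chr14:82383444-82383518, + strand: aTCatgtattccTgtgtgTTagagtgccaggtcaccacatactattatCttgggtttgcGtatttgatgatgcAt
EIF3LP2, chr10:43062143-43062217, + strand: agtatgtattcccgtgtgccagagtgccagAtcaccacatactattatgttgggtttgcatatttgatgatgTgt
EIF3LP3, chr10:38369698-38369772, - strand: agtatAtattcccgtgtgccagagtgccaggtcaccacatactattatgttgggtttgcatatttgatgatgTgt

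In this stretch *EIF3LP1* differed from *EIF3L* at 8 bases and the other copies at 2 bases each, so that a read with a few mismatches could be placed on more than 1 of them.

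*EIF3LP2*, at 43062125 to 43062931 of chromosome 10, was at 64.8, 49.4 and 58.4 CPM in ASO_CTRL replicates 1 to 3 and at 26.6, 25.2 and 31.2 CPM in ASO_LINC replicates 1 to 3. It fell by 1.07 on the log2 scale (SE 0.16, adjusted p = 0.00133). *EIF3LP3*, at 38368984 to 38369805 of the same chromosome, was at 48.6, 39.4 and 50.4 CPM in the controls and at 16.2, 12.5 and 25.2 CPM after knockdown, and fell by 1.40 (SE 0.23, adjusted p = 0.00261). In both, all knockdown libraries were well below all controls. *EIF3LP1* was at 17.4, 15.8 and 14.8 CPM in the controls and at 6.32, 4.62 and 10.8 CPM after knockdown, again with no overlap, and its log2 fold change of −1.19 (SE 0.27, adjusted p = 0.0121) missed the adjusted p. It was called lower by DESeq2 (adjusted p = 0.00139) and after a correction for GC content and length (adjusted p = 0.00814). *EIF3L* itself was at 204, 231 and 216 CPM in the controls and at 156, 126 and 178 CPM after knockdown, with no overlap and a log2 fold change of −0.50 (SE 0.15, adjusted p = 0.0383). All 4 rows were thus lower in all 3 knockdown libraries, and in these data, from bulk RNA, fewer cells with a transcript and less of it per cell cannot be told apart.

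Summing the counts of *EIF3L* with those of its 3 copies, an alternative chosen after seeing the data, gave 335, 335 and 339 CPM in the controls and 205, 168 and 245 CPM after knockdown. The summed family was called lower, with a log2 fold change of −0.71 (SE 0.15, adjusted p = 0.00843). The copies made up 31.2% to 39.0% of the family's counts in the control and 23.9% to 27.4% in the knockdown libraries. *EIF3LP2* lost its call without ASO_CTRL replicate 3 (adjusted p = 0.0114) or ASO_LINC replicate 1 (0.0117), and *EIF3LP3* without ASO_CTRL replicate 1 (0.0129), ASO_CTRL replicate 3 (0.019) or ASO_LINC replicate 1 (0.0197), with log2 fold changes between −1.04 and −1.35 in these fits. Without ASO_LINC replicate 3 all 4 rows were called lower, *EIF3L* at −0.62 (adjusted p = 0.00281). In the annotation used here, 41.1% of the exonic bases of *EIF3L* also lie in another gene on the same strand, and whether the authors' counting left out reads there is not given in the sources used here.

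**Figure D2:**
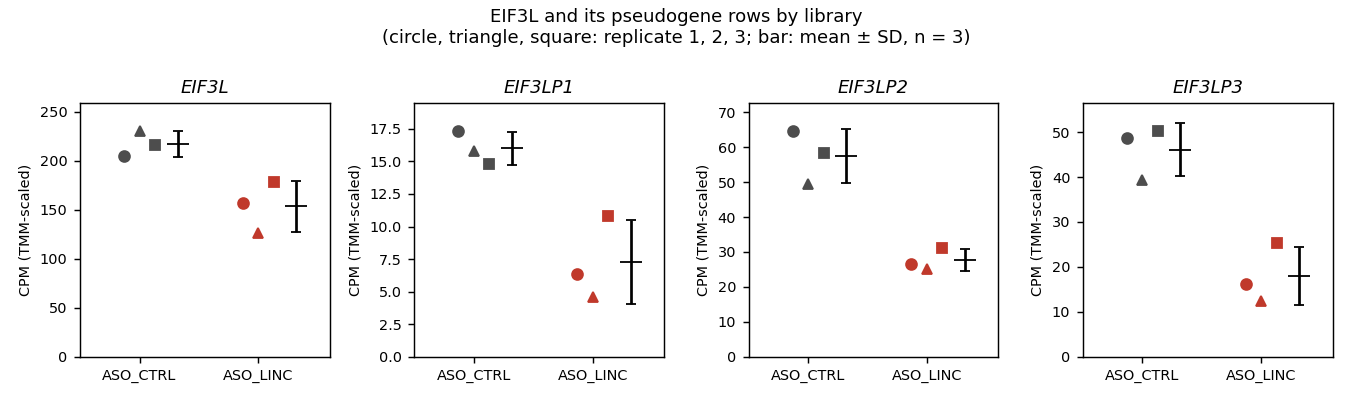
TMM-scaled CPM (y axis, from 0) of *EIF3L* and its 3 pseudogenes in ASO_CTRL (grey) and ASO_LINC (red), with a symbol for each replicate and the mean ± SD (n = 3) beside them. In each of the 4 panels every knockdown library lies below every control library, with ASO_LINC replicate 3 the nearest to the controls. The same holds for 17.3% of all tested genes.

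eIF4F is the complex of the cap-binding protein eIF4E, the helicase eIF4A and the scaffold eIF4G. *EIF4G2*, on chromosome 11, encodes an eIF4G relative that lacks the eIF4E-binding site, and had the smallest p of the 56 factor genes. It was at 312, 317 and 282 CPM in the controls and at 228, 199 and 151 CPM after knockdown. All 3 knockdown libraries were lower, replicate 3 the most. The log2 fold change was −0.65 (SE 0.16, adjusted p = 0.0167), past the fold bound and short of the adjusted p, and *EIF4G2* was called lower by DESeq2 (adjusted p = 0.00327), without ASO_LINC replicate 3 (−0.51, adjusted p = 0.00549) and after a correction for GC content and length (−0.71, adjusted p = 0.00185). The scaffold genes *EIF4G1* and *EIF4G3* had values of 0.11 and 0.01 (adjusted p = 0.603 and 0.967). *EIF4E2*, a cap-binding relative of eIF4E that represses translation, was at 101, 87.4 and 96.4 CPM in the controls and at 71.3, 78.4 and 76.7 CPM after knockdown, all lower (log2 fold change −0.33, SE 0.13, adjusted p = 0.0919). *EIF4E* (0.22, adjusted p = 0.506) and the low *EIF4E3* (10 to 35 counts, 1.03, SE 0.37, adjusted p = 0.0758) had 57 or fewer counts in each library.

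*EIF4B*, a cofactor that stimulates the eIF4A helicase, was at 139, 140 and 127 CPM in the controls and at 96.9, 97.0 and 69.7 CPM after knockdown. Its libraries did not overlap, and replicate 3 was again the lowest. The log2 fold change was −0.62 (SE 0.15, adjusted p = 0.0187), with a call in DESeq2 (adjusted p = 0.00563) and after the GC and length correction (−0.66, adjusted p = 0.00239). Without ASO_LINC replicate 3 it was −0.48 (adjusted p = 0.00549), inside the fold bound. The other cofactor, *EIF4H*, had a value of −0.32 (adjusted p = 0.156). Of the helicases, *EIF4A2* had 0.14 (adjusted p = 0.530) and *EIF4A3*, which sits in the exon junction complex, −0.20 (adjusted p = 0.435). *EIF4A1* had only 36 to 76 counts per library, and 47.4% of its exonic bases are shared with readthrough and small RNA genes on the same strand. Its pseudogenes held 91.5% to 95.9% of the counts of its family.

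The eIF4E-binding proteins, which hold eIF4E away from eIF4G, had fitted values of either sign and no call. *EIF4EBP1* was at 89.7, 124 and 95.9 CPM in the controls and at 130, 122 and 253 CPM after knockdown. The high value of replicate 3 carried most of the difference, replicate 2 lay among the controls, and the log2 fold change was 0.70 (SE 0.26, adjusted p = 0.0829). Without ASO_LINC replicate 3 it was 0.30 (adjusted p = 0.125), while the GC and length correction gave a call at 0.80 (adjusted p = 0.00484). *EIF4EBP2* was at 45.0, 42.8 and 46.0 CPM in the controls and at 35.3, 35.1 and 30.4 CPM after knockdown, with no overlap (log2 fold change −0.41, SE 0.14, adjusted p = 0.0608). *EIF4ENIF1*, the eIF4E transporter, had 13 to 40 counts and a value of −0.08. *EIF6*, which keeps large subunits from joining too early, differed widely among the knockdown libraries. Against the control mean its log2 change was −0.999 and −0.892 in replicates 1 and 2 and 0.360 in replicate 3, so the fitted value of −0.40 (SE 0.32, adjusted p = 0.415) became a call at −0.97 (adjusted p = 0.00123) without the latter.

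**Figure D3:**
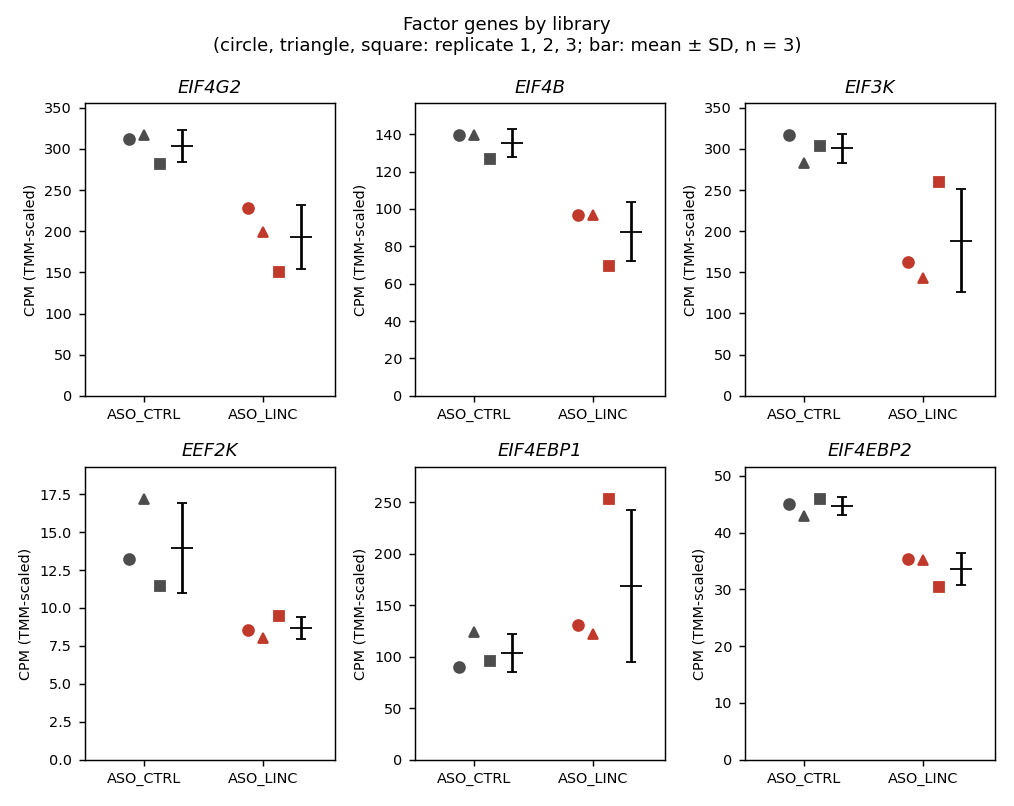
TMM-scaled CPM (y axis, from 0) of *EIF4G2*, *EIF4B*, *EIF3K*, *EEF2K*, *EIF4EBP1* and *EIF4EBP2* in ASO_CTRL (grey) and ASO_LINC (red), with a symbol for each replicate and the mean ± SD (n = 3). The conditions do not overlap in 5 of the 6 panels, the exception being *EIF4EBP1*, where ASO_LINC replicate 3 at 253 CPM is far above the other libraries. The panels include genes named for a small p. The conditions do not overlap in 15 of the 56 factor genes and in 36.1% of all tested genes.

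Of the elongation factors, *EEF2* was at 2178, 1988 and 2023 CPM in the controls and at 1605, 1337 and 2014 CPM after knockdown. Replicates 1 and 2 were below every control and replicate 3 among them (log2 fold change −0.32, SE 0.15, adjusted p = 0.166). *EEF2K*, the kinase that phosphorylates and inhibits eEF2, was at 13.2, 17.2 and 11.4 CPM in the controls and at 8.52, 8.04 and 9.49 CPM after knockdown, from 35 to 120 counts. All 3 values were lower, with a log2 fold change of −0.68 (SE 0.21, adjusted p = 0.0478). The eEF1B and eEF1E1 group had values from −0.36 (*EEF1E1*, adjusted p = 0.385) to 0.21 (*EEF1D*, adjusted p = 0.514). Of the eIF5A genes, *EIF5A* had −0.19 (adjusted p = 0.456), *EIF5A2* 0.00 (adjusted p = 0.998) and *EIF5AL1*, a copy of *EIF5A*, 0.39 (SE 0.16, adjusted p = 0.113).

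*EEF1A1*, whose product is among the most abundant proteins of the cell, was at 2991, 3864 and 3326 CPM in the controls and at 2573, 2481 and 3295 CPM after knockdown, and the conditions overlapped (log2 fold change −0.29, SE 0.15, adjusted p = 0.201). Its pseudogene *EEF1A1P5* on chromosome 9 was listed with 2721 to 4620 CPM, the same size of count as the gene itself. Over the 1389 bases of its copy it differed from *EEF1A1* by 4 substitutions, T294C, T720C, T933G and C1094T, counted from the A of the start codon, with the base of *EEF1A1* first. Another copy, *EEF1A1P6* on chromosome 7, differed by 7 substitutions and 1 gap in the alignment and was listed with 276 to 312 CPM. A stretch of 75 bases from coding position 220 shows how little there is to tell such reads apart, again from GRCh37 with differences from *EEF1A1* in capitals.

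EEF1A1, chr6:74229090-74229164, - strand: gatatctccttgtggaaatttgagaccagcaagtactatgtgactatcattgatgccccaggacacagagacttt
EEF1A1P5, chr9:135895092-135895166, + strand: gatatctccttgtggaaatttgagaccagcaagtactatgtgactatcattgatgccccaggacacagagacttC
EEF1A1P6, chr7:22551325-22551399, - strand: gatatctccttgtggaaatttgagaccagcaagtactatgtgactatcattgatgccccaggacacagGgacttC

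The single base in capitals in *EEF1A1P5* is T294C, which *EEF1A1P6* shares. Of the 75-base stretches of *EEF1A1P5*, 82.2% were found unchanged in another transcript. *EEF1A1P5* had a log2 fold change of −0.35 (SE 0.17, adjusted p = 0.179), near that of the gene, and without ASO_LINC replicate 3 it was called lower at −0.56 (adjusted p = 0.00424). *EEF1A2*, the paralogue known from muscle and neurons, was at 31.1 to 91.6 CPM, and its fitted value of 0.05 (SE 0.34) turned to −0.60 (adjusted p = 0.0105) without that library.

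Of the 50 pseudogenes and other names, 49 were aligned to a parent gene, with an identity from 83.9% to 99.7% and a median of 93.8%. The 45 that were tested had log2 fold changes from −1.40 to 0.65 with a median of −0.06, 17 above 0 and 28 below. *EIF2S2P4*, a copy of the eIF2 beta gene with 97.1% identity, was at 173, 144 and 170 CPM in the controls and at 255, 304 and 182 CPM after knockdown. All knockdown values were higher, and its log2 fold change of 0.61 (SE 0.18) had an adjusted p of 0.0393. It was called higher without ASO_LINC replicate 3 (0.78, adjusted p = 0.000625) and after the GC and length correction (0.63, adjusted p = 0.00424). *EIF3KP3*, a more distant copy with 85.5% identity and no shared 75-base stretch, had the opposite sign to *EIF3K*, at 20.2, 22.5 and 25.4 CPM in the controls and 38.1, 43.6 and 24.1 CPM after knockdown (log2 fold change 0.65, SE 0.21, adjusted p = 0.0555). Without ASO_LINC replicate 3 it was called higher at 0.84 (adjusted p = 0.00103). Counts were also summed for each of the 17 families with a gene and at least 1 copy in the table. The *EIF3L* family was the only one called. This count does not set the families apart from all tested genes, of which 7.54% were called in the fit without summing. The *EIF4B* family had a summed log2 fold change of −0.49 (SE 0.12, adjusted p = 0.0152), the *EIF3K* family −0.42 (adjusted p = 0.0561) and the *EEF1A1* family −0.29 (adjusted p = 0.199), while *EIF4A1* went from 0.30 alone to −0.12 with its copies (adjusted p = 0.509).

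The balance between paralogues was measured as the log2 ratio of their CPM in each library, for 8 pairs, with an exact two-sided permutation test, which cannot give a p below 0.1 for 3 libraries against 3. The ratio of *EIF4EBP1* to *EIF4EBP2* was 0.99, 1.53 and 1.06 in the controls and 1.88, 1.79 and 3.05 after knockdown. The conditions did not overlap, and the ratio was higher by 1.05 after knockdown (exact permutation p = 0.1, 0.4 after Benjamini-Hochberg adjustment over the 8 pairs). Without ASO_LINC replicate 3 the difference was 0.64. The ratio of *EIF4E* to *EIF4E2* was −4.03, −3.61 and −4.08 in the controls and −3.23, −3.46 and −3.44 after knockdown, a difference of 0.53 with the same p-values and no overlap. In the other 6 pairs, *EIF1* and *EIF1B*, *EIF3C* and *EIF3CL*, *EIF4A1* and *EIF4A2*, *EIF4G1* and *EIF4G3*, *EIF5A* and *EIF5A2*, and *EEF1A1* and *EEF1A2*, the libraries overlapped, with differences from −0.26 to 0.20 and exact permutation p-values from 0.5 to 0.8. The ratio of *EIF3C* to *EIF3CL* cannot show their balance, because *EIF3C* shares 97.9% of its stretches of read length with that copy. That of *EIF4A1* to *EIF4A2* leaves out the *EIF4A1* pseudogenes, which held 91.5% to 95.9% of the family's counts. It therefore cannot show the balance of these genes either.

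The mRNAs of many translation factors are known to begin with a terminal oligopyrimidine (TOP) tract, a C followed directly by further pyrimidines, through which mTORC1 controls their translation. In RefSeq start sequences of GRCh38.p14, 12 of the 46 factor genes with an entry (26.1%) had a start with a run of at least 5 pyrimidines beginning with C at the first transcribed base on the sense strand, compared with 5.14% of all 27305 genes. Where a gene had several starts, the one with the longest run was used, for factor genes and all genes alike (35116 starts in all). It need not be the start used in these cells, and the 27305 genes were not limited to those in the count table. No start sequence was at hand for *EIF3L*. Of the 12 genes, 6 starts of 20 bases are shown with the run in capitals, those of the genes that differed most and of the main elongation factors.

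EIF3K, chr19:38619188-38619207, + strand: CTCTTCCTgttcccgtcctt
EIF4B, chr12:53006456-53006475, + strand: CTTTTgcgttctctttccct
EIF2A, chr3:150546787-150546806, + strand: CTCTTTCCgggacaacatgg
EEF2, chr19:3985444-3985463, - strand: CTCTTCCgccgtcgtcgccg
EEF1A1, chr6:73521013-73521032, - strand: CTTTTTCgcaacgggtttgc
EEF1B2, chr2:206159895-206159914, + strand: CCTTTTTCCTCTCTTCagcg

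The log2 fold changes of the 12 genes ranged from −0.68 (*EIF3K*) to 0.24 (*EIF3D*) with a median of −0.17, 9 of them below 0, and none was called. The 34 genes without such a run had a median of −0.04, 18 of them below 0. A list of 9 factor mRNAs known to carry a TOP tract overlaps these 12 genes. Of this list, 8 were tested, none was called, and the median was −0.11. The 5 below 0, *EEF1A1*, *EEF1B2*, *EEF2*, *EIF3F* and *EIF4B*, are all among the 12 genes above and repeat their values. The 3 above 0 were *EEF1D* (0.21), *EIF3E* (0.31) and *EIF3H* (0.11). No start sequence was at hand for these 3, so they are in neither group above. All values are levels of mRNA, and translation was not measured.

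The enzymes and partners that act on these factors were taken from lists. Of 49 genes in 8 lists, 45 were tested, of which 4 were called higher and 1 lower, counts that do not set the lists apart from the 4.91% and 2.63% of all tested genes. The median log2 fold change was 0.002. The clearest was *DDIT4*, an inhibitor of mTORC1 signalling that is induced by stress, at 102, 83.3 and 92.3 CPM in the controls and at 423, 441 and 401 CPM after knockdown. It rose by 2.19 on the log2 scale (SE 0.13, adjusted p = 5.83e-06). *PPP1R15A*, the stress-induced subunit that directs protein phosphatase 1 to eIF2, was at 44.6, 52.8 and 37.7 CPM in the controls and at 101, 112 and 142 CPM after knockdown, and rose by 1.39 (SE 0.18, adjusted p = 0.000546). In both genes every knockdown library was well above the highest control, at 3.92 times for the lowest of *DDIT4* and 1.90 times for that of *PPP1R15A*.

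*PELO*, a rescue factor for stalled ribosomes, was at 69.4, 65.9 and 77.7 CPM in the controls and at 122, 137 and 109 CPM after knockdown (log2 fold change 0.79, SE 0.14, adjusted p = 0.0038). *MKNK2*, a kinase of eIF4E, was at 168, 169 and 169 CPM in the controls and at 246, 252 and 256 CPM after knockdown (0.57, SE 0.11, adjusted p = 0.00646). *PABPC4*, a cytoplasmic poly(A)-binding protein, was the gene called lower, at 169, 131 and 152 CPM in the controls and at 98.2, 89.0 and 99.5 CPM after knockdown (−0.66, SE 0.14, adjusted p = 0.00871). None of the 3 overlapped between conditions. *PELO*, *MKNK2* and *PABPC4* lost their calls when any library other than ASO_LINC replicate 3 was left out, whereas *DDIT4* and *PPP1R15A* kept theirs in all 6 such fits. *PABPC4* also lost its call without the filter on low counts.

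**Figure D4:**
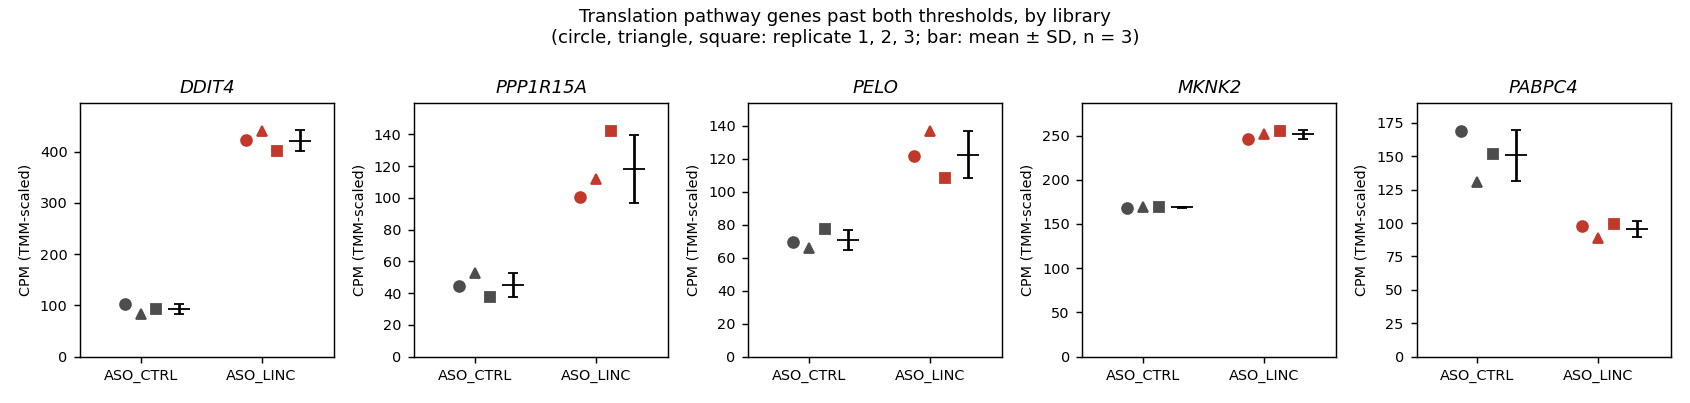
TMM-scaled CPM (y axis, from 0) of *DDIT4*, *PPP1R15A*, *PELO*, *MKNK2* and *PABPC4* in ASO_CTRL (grey) and ASO_LINC (red), with a symbol for each replicate and the mean ± SD (n = 3). *DDIT4* goes from 92.6 ± 9.47 to 422 ± 20.2 CPM. The panels show genes chosen because they were called, and the 2 conditions are apart in each, as in 36.1% of all tested genes.

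By list, the 5 subunits of eIF2 phosphatases all had fitted values above 0 (median 0.48), with *PPP1R15A* the 1 call. *PPP1CA* (0.03, SE 0.22) and *PPP1CC* (0.05, SE 0.19) lay within their SE of 0, and *PPP1CB* was at 0.52 (SE 0.37). *PPP1R15B*, the constitutive counterpart of *PPP1R15A*, was at 0.48 (SE 0.17, adjusted p = 0.0744) and was called at 0.63 without ASO_LINC replicate 3 (adjusted p = 0.0032). The 6 genes around the eIF2 kinases had a median of −0.14 and no call, the smallest p being that of *EIF2AK1*, the kinase known from heme and mitochondrial stress (−0.28, SE 0.12, adjusted p = 0.128). Of the 10 genes of mTORC1 and its regulators, *DDIT4* was called, and *RHEB*, the GTPase that activates mTORC1, had 0.58 (SE 0.15, adjusted p = 0.0236), with calls in DESeq2 (adjusted p = 0.0083) and without ASO_LINC replicate 3 (0.69, adjusted p = 0.00207). Of the poly(A)-binding proteins and partners, 5 were tested with a median of 0.11, and *PABPC4* was the 1 call. The helicases and reinitiation factors had no call, with the smallest p for *BZW1*, an eIF5 mimic, at 0.74 (SE 0.19, adjusted p = 0.0219). *BZW1* was called higher by DESeq2 (adjusted p = 0.00458), after the GC and length correction (0.61, adjusted p = 0.00489) and without ASO_LINC replicate 3 (0.95, adjusted p = 5.6e-05). The 3 genes of the eIF4E kinases and the eIF4A inhibitor *PDCD4* had a median of 0.20 with *MKNK2* called, and the 5 tested genes of termination and recycling had a median of −0.14 with *PELO* called. The enzymes that modify eIF5A with hypusine and eEF2 with diphthamide had none either, with a median of −0.32 and the smallest p for *DPH3* (0.60, SE 0.20, adjusted p = 0.0655), which was called higher without ASO_LINC replicate 3 (0.79, adjusted p = 0.00111). Leaving out that library gave 8 calls higher and 7 lower over the 8 lists, beside 9.42% and 7.81% of all tested genes. The 7 lower were *AKT1S1* (−1.11), *MLST8* (−0.94) and *RPS6KB2* (−1.13) of the mTORC1 list, *BZW2* (−0.67), *DHPS* (−0.55), the eIF4E kinase *MKNK1* (−0.61) and *PABPC4* (−0.69).

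The split of ASO_LINC replicate 3 went with the base composition of the factor genes. Across the 56 genes, the log2 change from the control mean had a Pearson correlation with transcript GC content of −0.51 in ASO_LINC replicate 1, −0.48 in replicate 2 and 0.45 in replicate 3 (Spearman −0.51, −0.48 and 0.39). Genes of 1 library share its depth and preparation and are not independent, so no test is given, and the part of GC content in any change was not tested. The correlations were not computed over all tested genes, so they do not show a trait particular to the factor genes. *EIF6* and *EIF3B*, with 57.3% and 56.9% GC, were lower in replicates 1 and 2 and not in replicate 3. *EIF1AX*, with 35.1%, was higher in those 2 libraries and not in replicate 3. Other genes did not change sides. *EIF4EBP1*, with 62.9% GC, lay above the control mean in every knockdown library. *EIF4G2* and *EIF4B*, with 43.4% and 44.8%, lay below it in every knockdown library. Without ASO_LINC replicate 3, 1 factor gene was called higher (*EIF1AX*) and 5 lower (*EIF3B*, *EIF3K*, *EIF3L*, *EIF4G2* and *EIF6*), beside 9.42% of all tested genes called higher and 7.81% lower. After the correction for GC content and length, 1 was called higher (*EIF4EBP1*) and 2 lower (*EIF4B* and *EIF4G2*), beside 6.82% and 4.80%. *EIF4G2* is the 1 factor gene called in both.

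**Figure D5:**
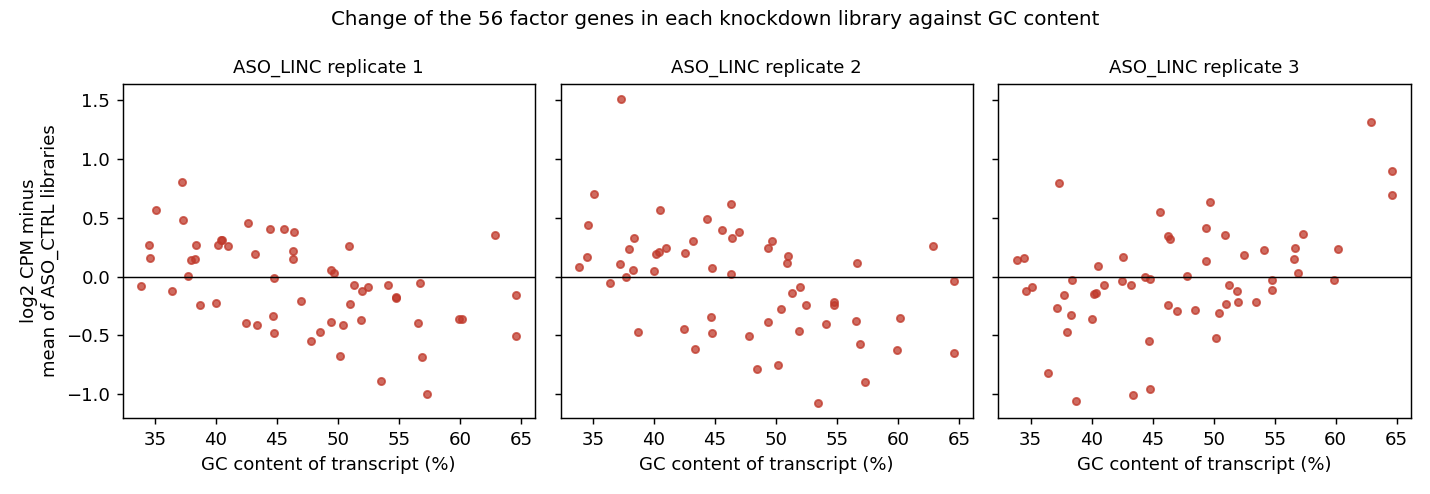
Log2 CPM minus the mean of the ASO_CTRL libraries (y axis) against the GC content of the transcript in percent (x axis) for the 56 tested factor genes, with a panel for each ASO_LINC replicate. The points slope down in replicates 1 and 2 (r = −0.51 and −0.48) and up in replicate 3 (r = 0.45).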

How the data were processed

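RNA-seq of 6 H226 libraries, 3 of ASO_CTRL and 3 of ASO_LINC, was used, with conditions taken from the sample labels (the study's methods paragraph on RNA-seq names another cell line). Per the labels, first-strand synthesis used oligo-dT. The authors sequenced single reads of 75 bases, aligned them with STAR to hg19 (named with edgeR in the submitters' processing notes) and deposited whole-number counts per gene name. The counting tool, annotation and strand setting are not given in the sources used here, so antisense and overlapping genes may share reads. The 4 closing totals of reads assigned to no gene, 24.8% to 28.1% of each library, were left out, and ambiguous reads were 1.60% to 1.87%.

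Counts (3686828 to 10546786 per library, common biological coefficient of variation 0.159) went into edgeR 4.0.16 under R 4.3.3 (filterByExpr, TMM, quasi-likelihood F-test, Benjamini-Hochberg adjustment over 14660 genes), with calls at an adjusted p below 0.01 plus a log2 fold change beyond 0.5. The SE is the size of the log2 fold change divided by the square root of F. For a single library, log2 CPM (prior count 2) was set against the mean over controls. The fit was tested on simulated data with known changes. Alternatives were DESeq2 1.42.0, other scalings and filters, an adjusted p below 0.05, the replicate number as a block and leaving out each library. The GC and length correction (splines of 5 degrees of freedom, 81.6% of tested genes with values) and the summed families were added after seeing the data.

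Factor genes, lists and the rule for named genes were chosen with earlier results of these data known. The rule names members past both thresholds, the smallest p of each complex or list, called list genes and 8 paralogue pairs. Further members named here were chosen after their values were seen. Positions, GC content and copies came from GENCODE v44 lifted to GRCh37, in which 106 of 107 names matched. Levels of Y-linked members are not given.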

Additional observations from a re-analysis of the deposited data

How the results depend on the processing

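The count of members called higher was 0 under edgeR's quasi-likelihood test and remained 0 with DESeq2, with other scalings, with other filters and with the replicate block. It was 1 at an adjusted p below 0.05 (9.70% of all genes), 2 after the GC and length correction (6.82%) and from 0 to 3 when each library was left out (1.68% to 9.42%), so the counts moved with those over the whole table. Members called lower were 2 (2.63% of all tested genes), and 5 with DESeq2 (3.50%), 8 at an adjusted p below 0.05 (7.11%), 5 after the GC and length correction (4.80%) and from 0 (without ASO_CTRL replicate 3 or ASO_LINC replicate 1) to 11 (without ASO_LINC replicate 3) when each library was left out, where the share of all genes went from 0.741% to 7.81%. Pathway genes called higher were 4 (4.91% of all tested genes), and 7 at an adjusted p below 0.05 (9.70%). They were from 2 to 8 when each library was left out (1.68% to 9.42%). Those called lower were 1 (2.63%), 0 without the filter on low counts (2.11%) and 2 at an adjusted p below 0.05 (7.11%). They were from 0 to 7 when each library was left out (0.741% to 7.81%).

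The deviations of same-numbered libraries had correlations of 0.06, −0.15 and −0.18, and those of different-numbered libraries from −0.14 to 0.19. With 3 libraries per condition these values cannot decide whether the replicate numbers pair the libraries. With a replicate block the same 2 members were called lower and 0 higher. Pathway genes called were then 2 higher and 0 lower, with *PELO*, *MKNK2* and *PABPC4* not called, beside 2.99% and 1.48% of all tested genes.

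Directions near 0 were not stable. *EIF5A2* turned to −0.007 with at least 10 counts in every library, to −0.20 after the GC and length correction and to below 0 without ASO_CTRL replicate 2, ASO_LINC replicate 2 or ASO_LINC replicate 3 (range over all libraries left out, −0.162 to 0.137). *EEF1A2* turned to −0.075 with the replicate block, and to below 0 without ASO_CTRL replicate 2 or ASO_LINC replicate 3 (range −0.597 to 0.324). *EIF4G3* turned to −0.001 after the GC and length correction, and to below 0 without ASO_CTRL replicate 2 or ASO_LINC replicate 1 (range −0.102 to 0.118). *EIF4A1* turned to −0.12 with its pseudogene counts. Of the paralogue ratios, *EIF1* to *EIF1B* (range −0.162 to 0.314) and *EIF3C* to *EIF3CL* (−0.071 to 0.015) changed sign without ASO_CTRL replicate 1, and *EIF4A1* to *EIF4A2* (−0.090 to 0.435), *EIF4G1* to *EIF4G3* (−0.086 to 0.290) and *EEF1A1* to *EEF1A2* (−0.411 to 0.158) without ASO_LINC replicate 3. The causes were not tested. Low counts limit *EIF3E*, *EIF4E*, *EIF4E3*, *EIF4ENIF1* and *EIF4A1*, each with at most 76 counts in a library. The pseudogenes of *EIF4A1* held 91.5% to 95.9% of its family's counts. Of its exonic bases, 47.4% also lie in other genes on the same strand. *EIF4E* and *EIF3E* shared 19% and 10.2% of their stretches of read length with other transcripts. How far sequencing depth or the assignment of reads made these counts low was not tested.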
